A study of Mus musculus with 12 samples.

Results

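Respiratory chain and ATP synthase genes were taken as all symbols that start with Nduf, Uqcr, Atp5 or Cox4 to Cox8. They cover most nuclear-encoded subunits of complex I, complex III, complex IV and the ATP synthase, with the complex I assembly factors of the Ndufaf series. The arrays carried probes for 88 such genes, and 84 of them were among the 13283 genes tested. All 84 were well above background on all 12 arrays. The members were chosen by name alone and not by their values. The cells were macrophages taken from the abdominal cavity of C57/BL6 mice and cultured in medium with serum, and their RNA was measured on one-colour arrays. The groups were GPR15 KO cells given LPS, GPR15 KO cells given PBS, WT cells given LPS and WT cells given PBS, with 3 arrays each. LPS, a component of the outer membrane of Gram-negative bacteria that activates macrophages through TLR4, was given at 100 ng/ml for 4 h. GPR15 is a G protein-coupled receptor, and the KO label covers both KO groups. Mouse age, the kind of knockout allele and whether replicates came from separate mice are not given in the sources used here. The p-values measure the spread between these arrays, which may be technical.

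The respiratory chain passes electrons from NADH and succinate to oxygen and pumps protons across the inner mitochondrial membrane. Complex I oxidises NADH, complex III passes the electrons to cytochrome c, complex IV reduces oxygen, and the ATP synthase uses the proton gradient to make ATP. Most subunits are encoded in the nucleus and a smaller set in mitochondrial DNA, and dedicated factors assemble each complex. Macrophages activated with LPS are known to shift towards glycolysis and to use electron flow through complex I for the production of reactive oxygen species. Transcript levels, as measured here, do not give the amount of assembled complex or its activity.

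The arrays lay on 2 slides. The 3 KO LPS arrays and KO PBS replicate 3 were on slide 2, and the other KO PBS arrays were on slide 1 with all 6 WT arrays. KO and WT cells after LPS therefore shared no slide, and slide and genotype cannot be told apart there. Gpr15 was well above background on 0 of 12 arrays, so the knockout could not be checked at this level. Xist was well above background on 0 of 6 KO arrays and 6 of 6 WT arrays, and the Y-linked Ddx3y, Kdm5d and Uty on 6 of 6 KO arrays and 0 of 6 WT arrays. The Y-linked Eif2s3y was well above background on 6 of 6 KO arrays and also on 1 of 6 WT arrays. Sex-linked genes thus divided nearly the same way as genotype, which cannot be told apart from it. All 12 macrophage markers were detected, with a summed level (signal relative to the array's 75th percentile) of 721 to 747 in KO LPS, 723 to 803 in KO PBS, 707 to 782 in WT LPS and 698 to 761 in WT PBS. Of these 12 markers 2 rose and 7 fell with LPS in KO cells, and 3 rose and 7 fell in WT cells. B-cell markers, 10 of 10 detected, summed to 61.6 to 62.4 in KO LPS against 127 to 133 in KO PBS. In WT cells they summed to 75.9 to 91.1 with LPS against 151 to 190 with PBS. Of these 10 markers 1 rose and 7 fell with LPS in KO cells, and 1 rose and 6 fell in WT cells. Mast-cell markers, 6 of 6 detected, had higher sums with LPS, although 3 rose and Ms4a2 fell in each genotype, with 186 to 203 in KO LPS against 96.7 to 114 in KO PBS and 239 to 261 in WT LPS against 109 to 147 in WT PBS. Dendritic-cell markers, 3 of 4 detected and Xcr1 not, summed to 71 to 78.7 in KO LPS against 21.8 to 24.4 in KO PBS and to 75.8 to 77 in WT LPS against 25.7 to 31 in WT PBS. For T cells 7 of 9 markers were detected, without Cd8a and Trat1, with sums of 8.4 to 11.3 over the 12 arrays. For neutrophils 5 of 9 were detected, without Ngp, Ltf and Cxcr2 and with no probe for Ly6g. Their sums were 7.89 to 9.99 in KO LPS against 5.81 to 9.05 in KO PBS. In WT cells the sums were 4.06 to 10.3 with LPS against 3.11 to 4.11 with PBS. Of these 5 markers 2 rose and 1 fell with LPS in each genotype. Markers of red cells and platelets, 5 of 6 detected, summed to 376 to 645 and those of mesothelial cells and fibroblasts, 1 of 8 detected, to 0.163 to 0.504. The part of these shifts in the results below was not tested. In such samples a lower share of a cell type and less RNA per cell cannot be told apart.

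LPS changed many of the 84 genes, about the same share as of all genes, and by small steps. Of the 84, 20 rose and 32 fell in WT cells, and 17 rose and 39 fell in KO cells (limma, adjusted p under 0.05 over all genes). In WT cells that was 23.8% higher and 38.1% lower, where 33.7% of all 13283 genes were higher and 31% lower. In total 52 of the 84 were called there, and 64.7% of all genes. In KO cells it was 20.2% higher and 46.4% lower, where 35.1% of all genes were higher and 32% lower. There 56 of the 84 were called, and 67% of all genes. The median log2 change of the 84 was -0.114 in KO cells and -0.068 in WT cells, and that of all genes was 0.040 and 0.027 in the same order. The split depends on scaling. With quantile normalization it was 10 higher and 53 lower in WT cells and 11 higher and 54 lower in KO cells, and with scaling to the array median it was 20 and 20 in WT cells.

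The sizes of change were small beside those of other genes. The median absolute log2 change of the 84 was 0.206 in KO cells and 0.16 in WT cells, and that of all genes 0.387 and 0.368. In WT cells 26 of the 84 (31%) changed by more than 1.2-fold in either direction, against 61.3% of all genes, and 5 of the 84 (5.95%) by more than 1.5-fold, against 32.7%. In KO cells these were 33 of 84 (39.3%) against 63.5%, and 4 of 84 (4.76%) against 33.4%. A change of more than 2-fold was found for 1 gene in WT cells and for 0 in KO cells, against 15.8% and 14.6% of all genes. The 95% confidence interval of the LPS change lay within 1.5-fold of no change for 71 of the 84 genes in KO cells and for 75 in WT cells.

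**Figure D1:**
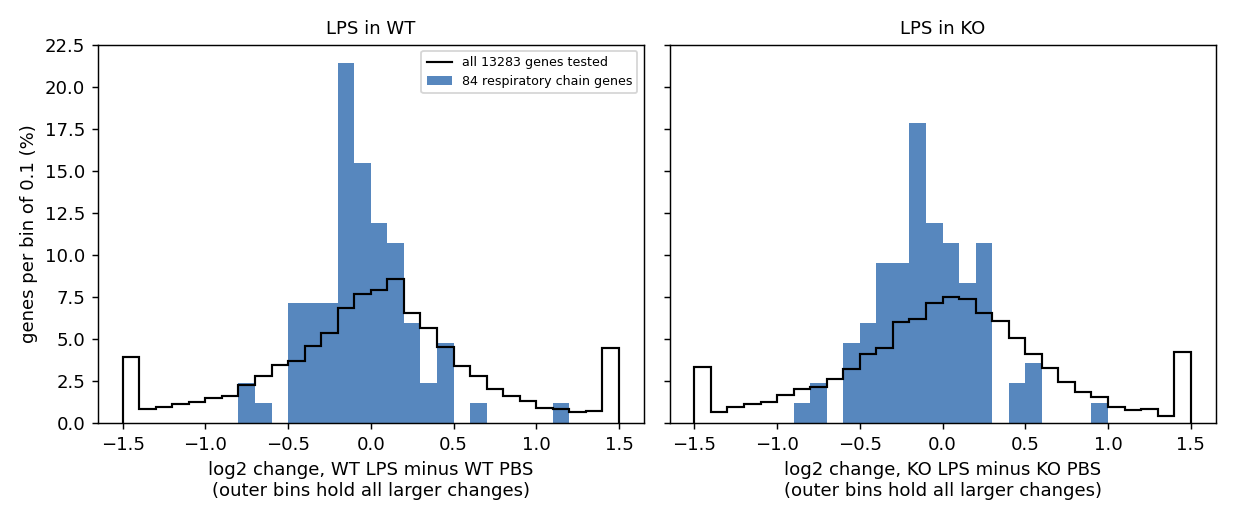
Histograms of log2 change in bins of 0.1, as the share of genes in each bin, for the 84 respiratory chain and ATP synthase genes and for all 13283 genes tested, with LPS in WT cells and in KO cells; the outermost bins hold all larger changes. The 84 lie closer to 0 than all genes under LPS, with 5 of 84 past 1.5-fold in WT cells and 4 of 84 in KO cells.

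Promoter sequences are shown for Ndufaf4, Ndufaf3, Ndufa12, Ndufv3 and Atp5b, 5 genes with large rises or falls in both genotypes, chosen after their values were seen. The 250 bases before the annotated start of each (RefSeq, GRCm38.p6) are shown 5′ to 3′ on the gene's own strand. Capitals mark matches on either strand to 4 motifs: the NRF1 motif (GCGC, any 2 bases, GCGC), the ETS core bound by GABP (CCGGAAG), the YY1 core (AAGATGG) and the GC box bound by Sp1 (GGGCGG). Matches may overlap. NRF1 and GABP are known as activators of nuclear genes for respiratory chain subunits.
Ndufaf4, chr4:24897833-24898082 (+ strand): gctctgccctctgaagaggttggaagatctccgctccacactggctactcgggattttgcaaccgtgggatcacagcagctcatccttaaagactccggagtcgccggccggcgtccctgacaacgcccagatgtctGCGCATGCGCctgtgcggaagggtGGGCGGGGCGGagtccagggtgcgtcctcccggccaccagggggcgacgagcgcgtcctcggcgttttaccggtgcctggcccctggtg
Ndufaf3, chr9:108567437-108567686 (- strand): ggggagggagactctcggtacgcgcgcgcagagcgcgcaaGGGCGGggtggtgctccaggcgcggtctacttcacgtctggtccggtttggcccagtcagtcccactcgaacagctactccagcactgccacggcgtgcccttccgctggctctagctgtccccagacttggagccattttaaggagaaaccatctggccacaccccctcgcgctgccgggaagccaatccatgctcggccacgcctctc
Ndufa12, chr10:94198785-94199034 (+ strand): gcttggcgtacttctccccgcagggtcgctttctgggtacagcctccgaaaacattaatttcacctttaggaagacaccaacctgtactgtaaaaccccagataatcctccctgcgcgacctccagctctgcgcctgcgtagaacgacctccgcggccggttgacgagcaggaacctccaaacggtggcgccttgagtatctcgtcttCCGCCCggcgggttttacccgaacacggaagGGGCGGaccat
Ndufv3, chr17:31519865-31520114 (+ strand): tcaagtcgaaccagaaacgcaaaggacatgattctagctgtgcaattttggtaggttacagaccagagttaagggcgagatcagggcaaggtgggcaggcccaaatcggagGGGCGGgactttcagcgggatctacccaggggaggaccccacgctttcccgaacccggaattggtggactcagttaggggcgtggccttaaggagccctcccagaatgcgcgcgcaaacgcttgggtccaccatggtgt
Atp5b, chr10:128083057-128083306 (+ strand): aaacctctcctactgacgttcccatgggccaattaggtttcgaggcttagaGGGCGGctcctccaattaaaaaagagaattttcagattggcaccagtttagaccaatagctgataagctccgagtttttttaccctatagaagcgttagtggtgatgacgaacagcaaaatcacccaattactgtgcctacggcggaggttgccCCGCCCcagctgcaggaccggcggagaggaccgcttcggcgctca
The Ndufaf4 window holds an NRF1 match that starts 113 bases before the start and 2 GC boxes, which overlap, at 89 and 84 bases before it. The other 4 windows hold GC boxes only: at 210 bases before the start in Ndufaf3, at 42 and 11 in Ndufa12, at 139 in Ndufv3, and at 199 and 45 in Atp5b. Of the 84 genes, 70 had a promoter window in the RefSeq table. In windows that run to 50 bases past the start, the NRF1 motif stood in 27.1% of the 70 and in 7% of all 27025 genes with a window, and the ETS core in 24.3% against 9.93%. The YY1 core stood in 17.1% against 7.28%, and the GC box in 45.7% against 38.2%. The median GC content was 57.8% against 52.7%. A match is a match of letters and was not tested as a binding site.

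Among the complex I assembly factors, LPS moved members in opposite directions. Of 8 tested, 5 rose and 2 fell in KO cells (median log2 change 0.25), and 4 rose and 2 fell in WT cells (median 0.134). Among all genes 35.1% rose and 32% fell in KO cells, and 33.7% rose and 31% fell in WT cells. Ndufaf4, a factor that acts early in building the membrane-bound part of complex I, showed the largest change of the 84 genes. Its log2 level, relative to the array's 75th percentile, was 1.41, 1.46 and 1.42 in KO LPS against 0.56, 0.61 and 0.36 in KO PBS, and 1.82, 1.90 and 1.87 in WT LPS against 0.80, 0.75 and 0.64 in WT PBS. All 6 LPS arrays lay above all 6 PBS arrays. The rise was 0.92 ± 0.07 on the log2 scale (SE) in KO cells, or 1.89-fold (limma adjusted p = 2.63e-07), and 1.14 ± 0.07 in WT cells, or 2.2-fold (limma adjusted p = 3.43e-08).

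Ndufaf3, which works in a pair with Ndufaf4 in the same step, moved the other way. Its log2 level was -1.29, -1.23 and -1.21 in KO LPS against -0.31, -0.27 and -0.62 in KO PBS, and -1.07, -1.03 and -1.05 in WT LPS against -0.36, -0.26 and -0.36 in WT PBS. The LPS arrays were the lower ones in both genotypes, with no overlap. The log2 change was -0.84 ± 0.09 in KO cells (adjusted p = 4.18e-06) and -0.72 ± 0.09 in WT cells (adjusted p = 1.35e-05), which left 0.557 and 0.606 times the PBS signal. Ndufaf6, another early factor, rose with log2 changes of 0.53 ± 0.09 in KO cells and 0.46 ± 0.09 in WT cells. Ndufaf7, a mitochondrial arginine methyltransferase, fell, with -0.55 ± 0.06 in KO cells and -0.40 ± 0.06 in WT cells. Ndufaf8, a partner of Ndufaf5, had 0.54 ± 0.09 in KO cells and 0.23 ± 0.09 in WT cells, both called, and the KO change was 0.35 with slide as a term in the fit. Ndufaf1 rose in both genotypes, by 0.24 in KO cells (not called with slide as a term) and 0.23 in WT cells, and Ndufaf5 was not called in either by the probe used. A second Ndufaf5 probe had 0.018 in WT cells and was called higher in KO cells (0.6). Ndufaf2, a paralogue of the subunit Ndufa12 that holds its place during assembly, had 0.26 ± 0.07 in KO cells (called) and 0.04 ± 0.07 in WT cells (not called).

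**Figure D2:**
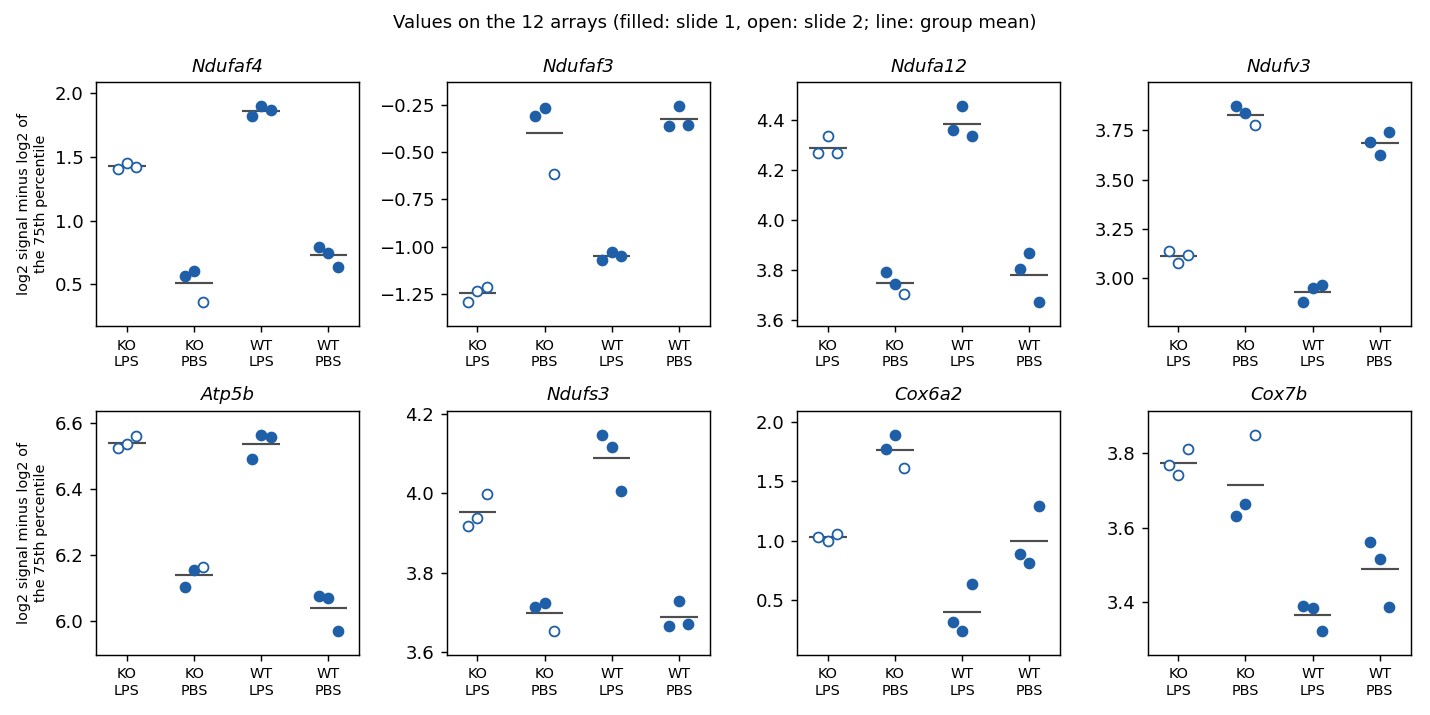
Log2 signal relative to the array's 75th percentile for 8 genes on each of 12 arrays, by group, with filled points for slide 1, open points for slide 2 and a line at the group mean. Ndufaf4, Ndufa12, Atp5b and Ndufs3 lie higher and Ndufaf3, Ndufv3 and Cox6a2 lower in both LPS groups than in their PBS groups. Cox7b lies higher in each KO group than in the WT group of the same treatment, called in neither treatment with slide as a term.

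The nuclear-encoded core subunits of complex I, which carry the flavin and the iron-sulfur clusters, were split in direction. Of 7, 2 rose and 3 fell in KO cells, and 3 rose and 3 fell in WT cells. All genes were split too, with 35.1% higher and 32% lower in KO cells and 33.7% and 31% in WT cells. Ndufs3, a subunit of the arm that binds ubiquinone, had log2 levels of 3.92, 3.94 and 4.00 in KO LPS against 3.71, 3.73 and 3.65 in KO PBS, and 4.15, 4.12 and 4.01 in WT LPS against 3.67, 3.73 and 3.67 in WT PBS. It was the highest in WT LPS, and LPS and PBS arrays did not overlap within either genotype. Its log2 change was 0.25 ± 0.05 in KO cells (adjusted p = 0.00056) and 0.40 ± 0.05 in WT cells (adjusted p = 1.32e-05). Ndufv1, which binds NADH and the flavin, fell by a similar step in both, with -0.24 ± 0.04 in KO cells and -0.25 ± 0.04 in WT cells. Ndufs7 and Ndufs8, both of which bind iron-sulfur clusters near the ubiquinone site, had -0.28 ± 0.06 and -0.31 ± 0.05 in KO cells and -0.23 ± 0.06 and -0.14 ± 0.05 in WT cells, all called lower. With slide as a term the KO changes of Ndufs7 and Ndufs8 were -0.12 and -0.21, and only that of Ndufs8 was still called (adjusted p = 0.0802 and 0.011). Ndufv2 rose in both, with 0.17 in KO cells (not called with slide as a term) and 0.18 in WT cells. Ndufs1 was called in WT cells alone, with 0.18. Neither of these 2 genes was called under quantile normalization.

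The accessory subunits of complex I, which surround the core and stabilise it, moved in both directions. Of 29 tested, 3 rose and 15 fell in KO cells (51.7% lower, against 32% of all genes), and 5 rose and 13 fell in WT cells (44.8% lower, against 31%). Ndufv3, an accessory subunit of the NADH-oxidising module, had log2 levels of 3.14, 3.08 and 3.12 in KO LPS against 3.87, 3.84 and 3.78 in KO PBS, and 2.88, 2.95 and 2.97 in WT LPS against 3.69, 3.62 and 3.74 in WT PBS. Every LPS array lay below every PBS array. Its log2 change was -0.72 ± 0.05 in KO cells (adjusted p = 9.65e-08) and -0.75 ± 0.05 in WT cells (adjusted p = 5.18e-08), or 0.607 and 0.594 times the PBS signal.

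Ndufa12, a subunit at the junction of the peripheral arm and the membrane arm, was the largest rise among subunits. Its log2 levels were 4.27, 4.33 and 4.27 in KO LPS against 3.79, 3.74 and 3.71 in KO PBS, and 4.36, 4.46 and 4.34 in WT LPS against 3.80, 3.87 and 3.67 in WT PBS. LPS arrays were higher and did not overlap PBS arrays. The log2 change was 0.54 ± 0.06 in KO cells (adjusted p = 4.48e-06) and 0.60 ± 0.06 in WT cells (adjusted p = 1.55e-06). Ndufa13, also known as GRIM-19, fell, with -0.54 ± 0.06 in KO cells and -0.44 ± 0.06 in WT cells.

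Falls were also found in part of the membrane arm. Its subunits Ndufb10, Ndufb11 and Ndufb3, which were chosen after their values were seen, all fell in both genotypes, with log2 changes of -0.54, -0.46 and -0.41 in KO cells and -0.44, -0.43 and -0.42 in WT cells. Ndufb4, Ndufb8 and Ndufc2 were called in neither genotype. Ndufb6 was called higher in both, with 0.115 in KO cells and 0.118 in WT cells. It was not called in KO cells with slide as a term (0.083). In WT cells it was not called in the fit within slide 1 (limma adjusted p = 0.058). Ndufc2 had 0.048 in KO cells and 0.093 in WT cells. Ndufb7 and Ndufb9 were called lower in KO cells alone. The other accessory subunits that fell in both were Ndufa3, Ndufa6, Ndufa11, Ndufb2, Ndufb5 and Ndufc1, with -0.22 to -0.45 in KO cells and -0.12 to -0.34 in WT cells. With slide as a term, the KO changes of Ndufa3, Ndufa6 and Ndufa11 were -0.27, -0.26 and -0.21, each still called, and that of Ndufb2 was not called. Ndufab1, the mitochondrial acyl carrier protein, rose in WT cells by 0.45 ± 0.07 and was not called in KO cells, where it had 0.16 ± 0.07. With slide as a term it was called in KO cells too (0.33, adjusted p = 0.00126). The difference between these 2 responses was not called (adjusted p = 0.135). Ndufs4, a subunit whose loss gives Leigh-like disease in mice, rose in both genotypes, with 0.30 in KO cells (not called with slide as a term) and 0.22 in WT cells (not called under quantile normalization).

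Complex III subunits moved in both directions. Of 8 tested, 3 rose and 2 fell in KO cells, and 4 rose and 2 fell in WT cells. Over all genes, 35.1% rose and 32% fell in KO cells, and 33.7% and 31% in WT cells. The core proteins Uqcrc1 and Uqcrc2 and the Rieske iron-sulfur protein Uqcrfs1 rose in both genotypes. Uqcrc2 had log2 levels of 4.12, 4.19 and 4.16 in KO LPS against 3.99, 3.98 and 3.92 in KO PBS, and 4.26, 4.34 and 4.23 in WT LPS against 3.98, 3.92 and 3.84 in WT PBS. The LPS arrays were the higher ones within each genotype. The log2 change was 0.20 ± 0.05 in KO cells (adjusted p = 0.00388) and 0.36 ± 0.05 in WT cells (adjusted p = 3.62e-05). Under quantile normalization Uqcrc1 was called in neither genotype and Uqcrc2 only in WT cells. The KO change of Uqcrc1 was 0.21 ± 0.08, and 0.46 with slide as a term. Uqcrfs1 rose by 0.26 ± 0.06 in KO cells and by 0.16 ± 0.06 in WT cells. In WT cells Uqcrfs1 had -0.02 under quantile normalization, so its direction there rests on the scaling. The hinge protein Uqcrh and the small subunit Uqcr11 fell in both genotypes. Uqcr11 had -0.37 ± 0.05 in KO cells and -0.42 ± 0.05 in WT cells, and Uqcrh -0.38 ± 0.05 and -0.32 ± 0.05. Uqcrq, another small subunit, rose in WT cells (0.26 ± 0.05) and was not called in KO cells (0.10 ± 0.05), where it had 0.20 with slide as a term and was called (adjusted p = 0.00593). Uqcr10 and Uqcrb were called in neither.

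Complex IV subunits had few calls in WT cells. Of 13 tested, 1 rose and 7 fell in KO cells (median log2 change -0.15), and 1 rose and 4 fell in WT cells (median -0.078). The share lower was 53.8% in KO cells and 30.8% in WT cells, where 32% and 31% of all genes were lower. Cox8a, the widely expressed form of subunit 8, had log2 levels of 5.60, 5.51 and 5.57 in KO LPS against 5.91, 5.94 and 5.83 in KO PBS, and 5.59, 5.62 and 5.57 in WT LPS against 5.87, 5.89 and 5.81 in WT PBS. In both genotypes LPS arrays were lower. The log2 change was -0.33 ± 0.04 in KO cells and -0.26 ± 0.04 in WT cells (adjusted p = 4.06e-05 and 0.000241). Cox7a2 also fell in both, with -0.15 in KO cells and -0.17 in WT cells. Cox4i1, Cox6a1 and Cox6b1 fell in KO cells only as called, by 0.17 to 0.19, and none of these 3 nor Cox7a2 was called in KO cells with slide as a term. Cox5a was the single complex IV gene that rose in WT cells, by 0.15, but it had -0.081 under quantile normalization.

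The tissue isoforms of complex IV are known mainly from heart, skeletal muscle, lung or testis. Cox6a2, the heart and muscle form of subunit 6a, had log2 levels of 1.03, 0.99 and 1.05 in KO LPS against 1.78, 1.89 and 1.62 in KO PBS, and 0.31, 0.23 and 0.64 in WT LPS against 0.89, 0.81 and 1.29 in WT PBS. Both genotypes had lower values with LPS, without overlap, and KO arrays lay above WT arrays under each treatment. The LPS change was -0.74 ± 0.13 in KO cells (adjusted p = 0.000335) and -0.60 ± 0.13 in WT cells (adjusted p = 0.00134). Cox6a1, the other form of subunit 6a, had -0.19 in KO cells and -0.06 in WT cells. Cox7a1, the heart and muscle form of subunit 7a, fell in both, with -0.54 ± 0.13 in KO cells and -0.46 ± 0.13 in WT cells, and the KO change was -0.28 with slide as a term (adjusted p = 0.148). Cox7a2l, a related protein that joins complexes III and IV into supercomplexes, had -0.27 in both genotypes, called in each; with slide as a term the KO change was -0.21 (adjusted p = 0.148). Cox4i2, the lung form of subunit 4, rose in KO cells (0.50 ± 0.19) and was not called in WT cells (-0.03 ± 0.19), but it had 0.03 in KO cells with slide as a term (adjusted p = 0.917). Cox6b2, the testis form of subunit 6b, was not called. The 3 isoform genes Cox7b2, Cox8b and Cox8c were among the 4 that did not pass the filter on dim probes, with Cox7b2 well above background on 1 array and the others on 0.

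ATP synthase genes moved in both directions. Of 17 tested, 3 rose and 9 fell in KO cells (median log2 change -0.148), and 3 rose and 7 fell in WT cells (median -0.034). Among all genes 35.1% rose and 32% fell in KO cells, and 33.7% and 31% in WT cells. Of the 5 genes of the membrane part 0 rose in either genotype, and 3 fell in KO cells and 4 in WT cells. Of the 4 stalk genes 1 rose in each, and 3 fell in KO cells and 2 in WT cells. Of the 5 genes of the F1 head 1 rose and 2 fell in KO cells, and 2 rose and 1 fell in WT cells. Atp5b, the catalytic beta subunit of the F1 head, had log2 levels of 6.53, 6.54 and 6.56 in KO LPS against 6.10, 6.16 and 6.16 in KO PBS, and 6.49, 6.56 and 6.56 in WT LPS against 6.08, 6.07 and 5.97 in WT PBS. In both genotypes LPS arrays were higher with no overlap. The rise was 0.40 ± 0.04 in KO cells (adjusted p = 8.06e-06) and 0.50 ± 0.04 in WT cells (adjusted p = 1.07e-06), or 1.32-fold and 1.41-fold. Atp5a1, the alpha subunit, had 0.12 in KO cells (not called) and 0.16 in WT cells (called). It had 0.20 in KO cells with slide as a term, called, and -0.064 in WT cells under quantile normalization. Atp5e, the epsilon subunit, fell, with -0.36 in KO cells and -0.16 in WT cells. With the replicate number as a block, the WT change of Atp5e was no longer called (adjusted p = 0.0531). In KO cells, with slide as a term, the changes of Atp5e and Atp5j were -0.22 and -0.20, still called, while Atp5d, the delta subunit, had -0.05 in place of -0.29 ± 0.08 and was no longer called.

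Atp5k and Atp5l, subunits e and g that hold ATP synthase dimers together, fell in both genotypes. Atp5k had log2 levels of 3.51, 3.50 and 3.54 in KO LPS against 3.99, 3.94 and 3.80 in KO PBS, and 3.50, 3.69 and 3.47 in WT LPS against 3.91, 3.81 and 3.87 in WT PBS. Within each genotype the LPS arrays were lower. The log2 change was -0.40 ± 0.06 in KO cells and -0.31 ± 0.06 in WT cells. Atp5l had -0.15 in KO cells, not called with slide as a term, and -0.31 in WT cells. In the stalk, Atp5pb (subunit b) rose by 0.20 in KO cells and 0.29 in WT cells, neither called under quantile normalization. The KO change of Atp5pb was not called with slide as a term. A second Atp5pb probe had 0.011 in KO cells (not called) and 0.306 in WT cells (called higher). Atp5j (coupling factor 6) fell by 0.33 in KO cells and 0.15 in WT cells. The 3 genes for subunit c, whose mature proteins are identical, differed: Atp5g3 rose by 0.28 and Atp5g2 fell by 0.18 in KO cells, Atp5g1 was not called there, and none of the 3 was called in WT cells. With slide as a term Atp5g2 was not called in KO cells.

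**Figure D3:**
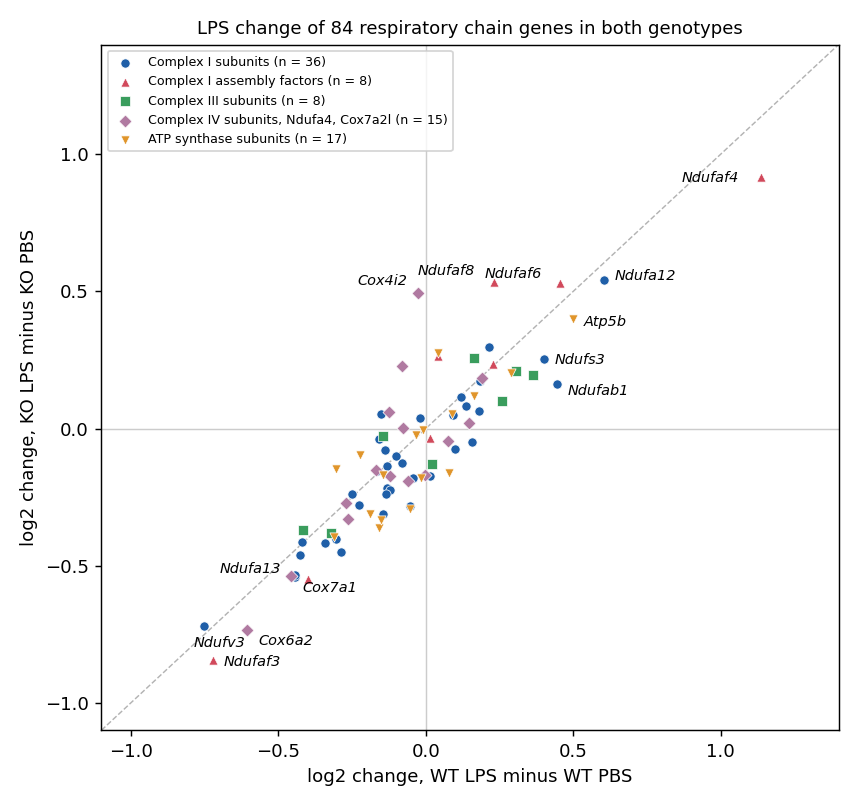
Log2 change with LPS in WT cells (x axis) and in KO cells (y axis) for the 84 genes, coloured by role, with lines at 0 and along the diagonal. Most points lie near the diagonal, with Ndufaf4 at the upper right and Ndufaf3 and Ndufv3 at the lower left.

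Members called in both genotypes were called in the same direction. Of the 84, 14 rose in both, 29 fell in both and 19 were called in neither, and 0 were called in opposite directions. The first 3 classes held 16.7%, 34.5% and 22.6% of the 84, and 26.8%, 26.4% and 22.1% of all genes. Opposite calls were rare among all genes too. There 0.497% were higher in WT and lower in KO cells, and 0.113% the reverse. A further 6 were called higher and 3 lower in WT cells alone, and 3 higher and 10 lower in KO cells alone. Across the 84 genes, the 2 sets of changes had Pearson's r of 0.897 and Spearman's rho of 0.867, close to the 0.881 and 0.85 of all genes tested, a description across genes, which share arrays and are not independent. In KO cells the count depends on slide: with slide as a term, 16 genes rose and 24 fell (median -0.056), with Atp5a1, Atp5md, Ndufa5, Ndufab1 and Uqcrq newly called higher. With the replicate number as a block in WT cells, 21 rose and 35 fell. That fit called Cox7b, Ndufa5, Ndufa8, Ndufb8 and Uqcrb in addition.

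The test of the difference between the genotypes' LPS responses called 1 of the 84, where 4.31% of all genes were called, 0.926% higher and 3.39% lower. The median difference over the 84 was -0.057, against -0.008 over all genes. The one called was Atp5o, which encodes OSCP, the stalk subunit that links F1 to the stator. Its log2 levels were 5.19, 5.19 and 5.18 in KO LPS against 5.39, 5.36 and 5.29 in KO PBS, and 5.27, 5.31 and 5.25 in WT LPS against 5.22, 5.23 and 5.14 in WT PBS. LPS arrays were the lower ones in KO cells and the higher ones in WT cells. The LPS change was -0.16 ± 0.04 in KO cells (adjusted p = 0.00577) and 0.08 ± 0.04 in WT cells (adjusted p = 0.133, not called). The difference was -0.24 ± 0.06 (adjusted p = 0.0487). It was not called with slide as a term (-0.186, adjusted p = 0.201) or with the mean of the gene's probes (-0.134, adjusted p = 0.311). The gene's second probe had a difference of -0.026, with an LPS change of 0.087 in KO cells and 0.113 in WT cells, none of them called.

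Without LPS, few members differed between KO and WT cells. Of the 84, 9 were higher and 0 lower in KO PBS than in WT PBS (10.7%), where 8.06% of all genes were higher and 6.05% lower, so 14.1% were called. The members' share was thus near the background. The log2 difference was above 0 for 63 of the 84, and for 6886 of all 13283 genes, with medians of 0.089 and 0.010. With quantile normalization 4 were higher and 1 lower (median 0.049), and with scaling to the array median 2 were higher (median 0.04). All 13 complex IV genes had a difference above 0, small for most (median 0.105), and 2 of them were called. These genes share the same arrays, so their signs are not independent. Of 36 complex I subunits 4 were called, of 17 ATP synthase genes 3, and of the assembly factors and complex III 0. The set of 9 is not stable: without KO PBS replicate 3, the array of that group on slide 2, 21 were called higher, and with slide as a term 20 were.

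Cox6a2 held the largest of these differences, 0.76 ± 0.13 or 1.7-fold (adjusted p = 0.00286), and kept its call under every alternative tried. Its 3 KO PBS arrays lay above its 3 WT PBS arrays, as given above. The complex I accessory subunit Ndufb6 had log2 levels of 2.70, 2.60 and 2.70 in KO PBS against 2.37, 2.48 and 2.39 in WT PBS. The KO arrays were higher, with a difference of 0.25 ± 0.05 (adjusted p = 0.00542). The other 7 called genes were Cox7b, Atp5j, Atp5mpl, Ndufc1, Atp5o, Ndufa10 and Ndufa1, with differences of 0.13 to 0.23. With slide as a term Cox7b had 0.16 and was no longer called (limma adjusted p = 0.0683). Cox7b and Ndufa1 lie on the X chromosome, as does Ndufb11, which had -0.03 ± 0.05 and was not called.

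**Figure D4:**
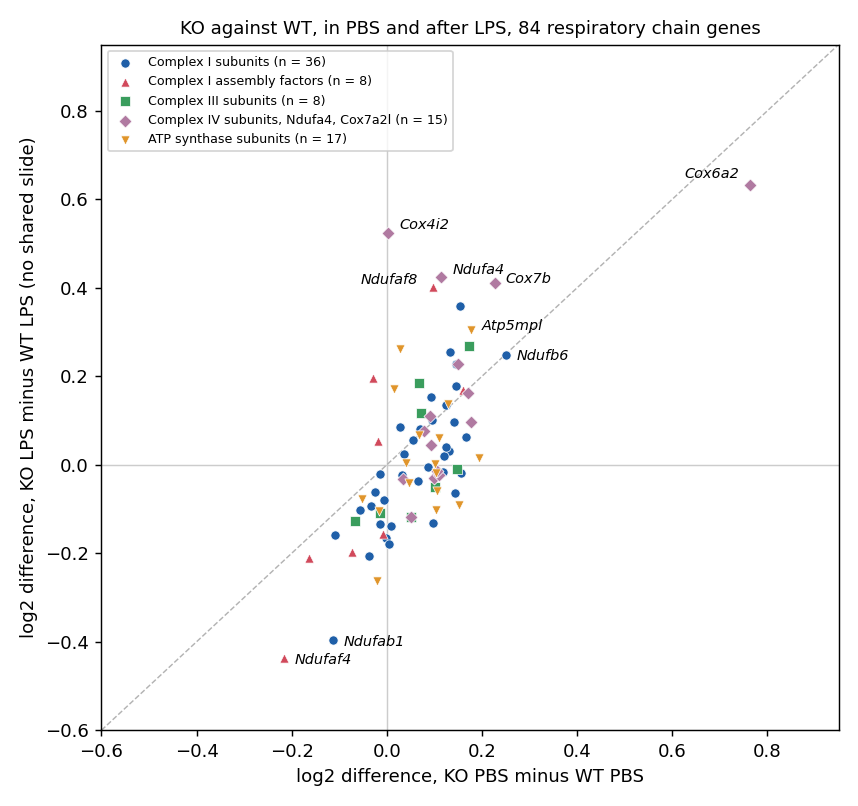
Log2 difference of KO minus WT for the 84 genes in PBS (x axis) and after LPS (y axis), coloured by role. Most points lie right of 0 in PBS, with Cox6a2 farthest to the right, and lie on both sides of 0 after LPS.

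After LPS, KO and WT cells differed in more members, in both directions, and lay on different slides. Of the 84, 20 were higher (23.8%) and 8 lower (9.52%) in KO LPS than in WT LPS, where 20% of all genes were higher and 19.5% lower, so 39.5% were called. The median difference was 0.004 against -0.010 for all genes. Scaling moved the split to 9 higher and 20 lower with the array median and to 25 higher and 5 lower with quantile normalization, and the array median moved the median of all genes to -0.117. In a fit with slide as a term, where the 1 KO PBS array on slide 2 sets the slide difference, 3 were higher and 0 lower. A difference of more than 1.5-fold was found for 1 of the 84 in each comparison of KO with WT, against 13.6% of all genes after LPS and 6.23% in PBS. The 95% confidence interval lay within 1.5-fold of no difference for 79 of the 84 after LPS and for 83 in PBS.

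Cox7b, a small complex IV subunit, had log2 levels of 3.77, 3.74 and 3.81 in KO LPS against 3.39, 3.38 and 3.32 in WT LPS, and 3.63, 3.66 and 3.85 in KO PBS against 3.56, 3.52 and 3.39 in WT PBS. KO arrays were higher under both treatments, and KO PBS replicate 3 on slide 2 was the highest of its group. The difference after LPS was 0.41 ± 0.06 (adjusted p = 0.000739) and 0.21 with slide as a term (adjusted p = 0.181). Cox6a2 had 0.63 ± 0.13 (adjusted p = 0.00337) and 0.85 with slide as a term (adjusted p = 0.0583). Ndufa4, a complex IV subunit once assigned to complex I, had log2 levels of 3.64, 3.59 and 3.71 in KO LPS against 3.24, 3.31 and 3.12 in WT LPS, and 3.27, 3.29 and 3.70 in KO PBS against 3.38, 3.40 and 3.14 in WT PBS. The 3 KO LPS arrays and the single KO PBS array on slide 2 stood together above the rest. Its difference after LPS was 0.42 ± 0.11, and 0 with slide as a term. Cox4i2 had 0.52 ± 0.19, and -0.177 with slide as a term.

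Atp5mpl and Ndufa1 were still called higher with slide as a term. Atp5mpl, a small membrane subunit of the ATP synthase, had log2 levels of 4.23, 4.21 and 4.30 in KO LPS against 3.96, 3.90 and 3.97 in WT LPS, with no overlap. The difference was 0.30 ± 0.04 (adjusted p = 0.000583), and 0.36 with slide as a term. The X-linked Ndufa1, a small membrane-arm subunit of complex I, had 0.25 ± 0.04 (adjusted p = 0.000682), and 0.27 with slide as a term.

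Ndufaf4 led the genes that were lower in KO LPS than in WT LPS. The array values given above lay lower on all 3 KO LPS arrays than on the 3 WT LPS arrays, with a difference of -0.44 ± 0.07 (adjusted p = 0.000755). With slide as a term it was -0.21 (adjusted p = 0.181), and in PBS KO cells had -0.22 ± 0.07, not called. Ndufab1 had -0.40 ± 0.07, and -0.15 with slide as a term. Atp5d had -0.26 ± 0.08, and 0.1 with slide as a term, so its direction turned.

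The median deviation of the 84 genes from their own means over the 12 arrays was -0.045 to -0.004 on the KO LPS arrays, 0.036 to 0.107 on the KO PBS arrays, -0.076 to -0.019 on the WT LPS arrays and -0.013 to 0.002 on the WT PBS arrays. LPS arrays were the lower ones in both genotypes, and KO PBS the highest group, with its slide 2 array the lowest of the 3. Over all genes tested the same median lay between -0.046 and 0.019 on the 12 arrays.

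**Figure D5:**
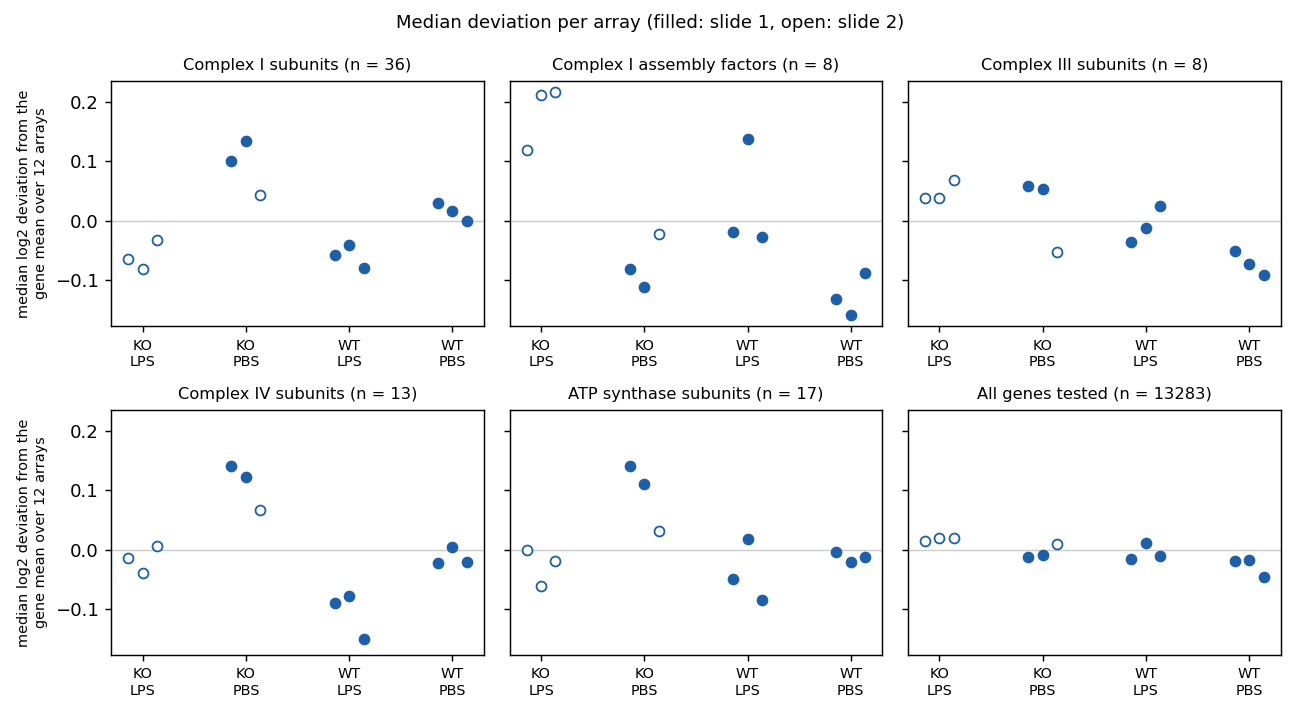
Median deviation of each role's genes from their mean over 12 arrays (log2 scale), for each array by group, for complex I subunits (36 genes), assembly factors (8), complex III (8), complex IV (13), ATP synthase (17) and all genes tested. The medians of all genes stay between -0.046 and 0.019, while complex I and complex IV are lower on LPS arrays than on PBS arrays of the same genotype.

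Genes that serve the chain but do not carry its names moved further in places. They were taken from lists by function, and up to 3 called genes with the smallest p are named from a list. As background to the counts of these lists, 35.1% of all genes rose and 32% fell in KO cells. In WT cells it was 33.7% and 31%. Of 8 complex II genes 1 rose and 2 fell in each genotype. Sdhaf1, an assembly factor that helps insert iron-sulfur clusters, rose by 0.44 ± 0.06 in KO cells and 0.69 ± 0.06 in WT cells, and Sdhaf4, another assembly factor, fell, with -0.61 ± 0.09 and -0.74 ± 0.09. Of 4 genes around cytochrome c 2 rose and 1 fell in each genotype. Cycs, cytochrome c itself, had log2 levels of 5.35, 5.33 and 5.32 in KO LPS against 4.71, 4.69 and 4.79 in KO PBS, and 5.27, 5.37 and 5.22 in WT LPS against 4.63, 4.66 and 4.42 in WT PBS. All LPS arrays lay above all PBS arrays, and the rise was 0.61 ± 0.06 in KO cells and 0.72 ± 0.06 in WT cells. Cyc1, cytochrome c1 of complex III, rose by 0.14 ± 0.05 in KO cells and 0.43 ± 0.05 in WT cells, and this difference was called (-0.29 ± 0.07, adjusted p = 0.0291), but not with slide as a term (-0.227, adjusted p = 0.148).

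Assembly factors outside the naming rule also moved in both directions. For complex I 3 of 11 rose and 5 fell in KO cells, and 3 rose and 4 fell in WT cells. For complex III 2 of 5 rose and 2 fell in KO cells, and 1 rose and 1 fell in WT cells, with Uqcc3 at -0.98 ± 0.05 in KO cells and -0.79 ± 0.05 in WT cells. For complex IV 9 of 22 rose and 10 fell in each genotype. Surf1, a complex IV assembly factor mutated in Leigh syndrome, fell, with -0.84 ± 0.07 in KO cells and -0.82 ± 0.07 in WT cells, while Cox18, which inserts a complex IV core subunit into the membrane, rose by 0.46 ± 0.04 and 0.71 ± 0.04. Of 3 genes that assemble or regulate the ATP synthase 1 rose and 2 fell in each genotype. Atpif1, the inhibitor that blocks reverse ATP hydrolysis, had log2 levels of 3.30, 3.29 and 3.48 in KO LPS against 4.27, 4.17 and 4.12 in KO PBS, and 3.02, 3.10 and 3.17 in WT LPS against 3.77, 3.75 and 3.90 in WT PBS. The LPS arrays were lower in both, with a change of -0.83 ± 0.07 in KO cells and -0.71 ± 0.07 in WT cells.

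The carriers and the genes for expression of mitochondrial DNA also held falls. Of 9 carriers, 3 rose and 3 fell in KO cells, and 2 rose and 3 fell in WT cells. Ucp2, an inner-membrane carrier known for high expression in macrophages, had log2 levels of 0.14, 0.11 and 0.27 in KO LPS against 1.83, 1.89 and 1.33 in KO PBS, and 0.15, 0.01 and 0.43 in WT LPS against 1.45, 1.39 and 1.72 in WT PBS. All LPS arrays lay below all PBS arrays, with a log2 change of -1.51 ± 0.15 in KO cells and -1.32 ± 0.15 in WT cells. Of 15 genes for expression of mitochondrial DNA 7 rose in each genotype, with 3 lower in KO cells and 4 in WT cells. Mterf2, a factor of the mitochondrial transcription termination family, fell, with -1.38 ± 0.13 in KO cells and -1.59 ± 0.13 in WT cells. Among regulators of respiratory genes 7 of 12 rose in each, with 3 lower in KO cells and 4 in WT cells. Perm1, a muscle regulator linked to PGC-1 and ERR, was well above background on the 3 LPS arrays of each genotype and on 0 PBS arrays. It was at least 1.87-fold higher with LPS in KO cells and at least 3.87-fold higher in WT cells, where the dim side was held at the lowest signal above background. Its difference of responses was called (adjusted p = 0.0443), but not with slide as a term (adjusted p = 0.219). Gabpb1, the beta subunit of GABP, rose by 1.11 ± 0.06 in KO cells and 1.30 ± 0.06 in WT cells, and Pprc1, a coactivator related to PGC-1alpha, by 0.70 ± 0.05 and 0.68 ± 0.05. Of 10 HIF-linked genes 3 rose and 5 fell in KO cells, and 2 rose and 6 fell in WT cells. Egln3, an oxygen-sensing hydroxylase of HIF, which was chosen after its values were seen, had -1.32 ± 0.28 in KO cells and -1.59 ± 0.28 in WT cells, both called, and was not called in KO cells with slide as a term (adjusted p = 0.0523). Bnip3, a receptor for the removal of mitochondria, fell, with -1.13 ± 0.09 in KO cells and -0.97 ± 0.09 in WT cells.

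Ndufa4l2, the paralogue of Ndufa4 known as a hypoxia-induced gene, was the other gene that did not pass the filter. It was well above background on 1 of 12 arrays, a WT PBS one, so no fold is given for it. Of the 84 genes 17 had several kept probes, and for 0 of them were probes called in opposite directions. A second probe had another call than the first for 7 of the 17 with LPS in KO cells (Atp5g1, Atp5o, Atp5pb, Cox7c, Ndufa5, Ndufaf5 and Uqcrb), for 5 in KO after LPS and for 4 with LPS in WT cells.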

How the data were processed

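RNA of 12 one-colour arrays was labelled with Cy3, per the labels' protocols. The deposited files hold signal intensity per spot as written by Agilent Feature Extraction, version 11.5.1.1 per the submitters' processing notes. The processed signal is already background-subtracted, per the file headers. Its log2, less the array's 75th percentile of non-control spots, was used, and spots of a probe were averaged.

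Probes were named through accessions in a RefSeq table (GRCm38.p6). A probe was kept where some group had all 3 of its arrays well above background, and the brightest stood for its gene. One limma 3.58.1 model (R 4.3.3, empirical Bayes with a variance trend) over 12 arrays gave two-sided tests, with Benjamini-Hochberg adjustment over 13283 genes and a threshold of 0.05. The number of arrays limits the precision. The fit was tested on simulated data.

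Members, lists and tests were chosen with earlier results of these data known. Named were, for each role and comparison, up to 3 called members with the largest change and no overlap, tissue isoforms and their counterparts, X-linked members, members called in the difference of responses and those not detected. Alternatives covered background correction (normexp on median signals, as the mean column was not used here), scaling, filter, probe choice, moderation, arrays in the fit, array weights (gene-by-gene method, chosen after seeing the data), replicate number, slide, threshold and each array left out. Equal replicate numbers had residual correlations of 0.105, 0.371 and 0.481 for LPS in WT cells, so they were taken as pairs there from the data, as the labels give no shared origin, and not in the other comparisons (-0.102 to 0.113). Between replicates 1 and 2 the unequal numbers had 0.154 and 0.236 in WT cells, above the 0.105 of replicate 1. The pairing of replicates 1 and 2 is therefore uncertain. The values of 1 member are not reported here by name.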

Additional observations from a re-analysis of the deposited data

Results flagged for a closer look

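Atp5o, which encodes the OSCP subunit of the ATP synthase stalk, had LPS changes of opposite sign in KO and WT cells, and the WT change alone was not called. The test of the difference gave -0.242 on the log2 scale (limma adjusted p = 0.0487), with all 3 KO LPS arrays below the KO PBS arrays and all 3 WT LPS arrays above the WT PBS arrays. It rests on 1 of 2 probes: the other had a difference of -0.026, with an LPS change of 0.087 in KO cells, neither called. The difference was called under 5 of 23 alternatives, and its adjusted p lay between 0.000605 and 0.311. All 3 KO LPS arrays and 1 KO PBS array lay on slide 2, and with slide as a term the difference was -0.186 (adjusted p = 0.201).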

How the results depend on the processing

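Counts are of members higher and lower. For LPS in WT, quantile normalization gave 10 and 53 (median -0.251), array median scaling 20 lower (median -0.028), normexp a median of -0.097 and a threshold of 0.01 13 higher. For LPS in KO, quantile normalization gave 11 higher and 54 lower (median -0.238), slide as a term 24 lower (median -0.056) and the fit within slide 2 a median of -0.056. For KO in PBS, quantile normalization gave 4 and 1 (median 0.049), array median scaling 2 higher (median 0.04), no dim-probe filter 4, no variance trend 4, the 2 groups alone 1, array weights 35 and 2, the replicate block 2 and 1, slide as a term 20 and a threshold of 0.01 2. For KO after LPS, quantile normalization gave 5 lower (median 0.042), array median scaling 9 and 20 (median -0.103), no filter 5 lower, the 2 groups alone 15 lower, array weights 23 lower, the replicate block 4 lower, slide as a term 3 and 0 (median 0.122) and a threshold of 0.01 9 and 2. For the difference of responses, quantile normalization gave 2 and 0 (median -0.004), array weights 7 and 30, and the median was -0.115 with array median scaling and 0.016 with slide as a term; array median scaling, no filter, the mean of probes, no variance trend, slide as a term and a threshold of 0.01 each gave 0 lower. Why these settings moved the values was not tested.

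Leaving out 1 array gave, for LPS in WT, 14 to 21 higher and 25 to 36 lower (median -0.083 to -0.044); for LPS in KO 12 to 17 and 35 to 44 (-0.143 to -0.074); for KO in PBS 2 to 21 and 0 to 1 (0.066 to 0.104); for KO after LPS 13 to 20 and 3 to 16 (-0.01 to 0.025); and for the difference of responses 0 to 5 and 0 to 17 (-0.099 to -0.031). Without KO PBS replicate 3, 21 members were higher for KO in PBS, 16 lower for KO after LPS, and 5 higher and 17 lower for the difference.

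Directions turned with quantile normalization for LPS in WT in Atp5a1 (-0.064), Cox5a (-0.081) and Uqcrfs1 (-0.02), and with slide as a term for KO after LPS in Atp5d (0.1) and Cox4i2 (-0.177), while Ndufa4 reached 0. The replicate block gave 21 and 35 for LPS in WT, where numbers were taken as pairs, and 19 and 40 for LPS in KO, 14 higher for KO after LPS and 0 and 1 for the difference. With 3 arrays a group, the number of arrays limits the precision.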
